A study of Mus musculus with 12 samples.

Results

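The comparison described here set the livers of Akp3 knockout mice against those of wild-type mice when both had been given the vehicle alone. The members were the arrays whose titles name the intestinal alkaline phosphatase knockout or the wild type together with a dose of 0 of the peptide, which gave 6 of the 12 arrays in the series, 3 of each genotype. All mice were male, 7 weeks old, dosed by mouth daily for 14 days and fasted for 8 h before sampling. Both vehicle groups received carboxymethylcellulose sodium salt dissolved at 5 g/L; the mice behind a further 3 arrays of each genotype received IIAEK, a pentapeptide described by the submitters as lowering cholesterol, at 600 mg/kg per day. The labels give neither the strain nor whether the wild-type mice were littermates. They do not say that arrays of a group came from separate animals, so p-values measure the spread between these arrays, which may be technical.

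Akp3 encodes an intestinal alkaline phosphatase, a brush-border enzyme of the small intestine that removes phosphate groups from luminal substrates, among them the lipid A part of bacterial endotoxin. Portal blood carries what passes the intestinal wall to the liver, where hepatocytes and resident macrophages take up endotoxin. The liver's own alkaline phosphatase is the tissue-nonspecific enzyme encoded by Alpl.

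Liver RNA was labelled with Cy3 and hybridised to 1-colour Agilent arrays of 59305 non-control spots. The unit throughout is log2 of the scanner's processed signal minus the log2 of the array's 75th percentile, so that 0 is the 75th percentile of an array, and every difference is knockout minus wild type. Between 56.8% and 61.9% of probes were well above background on the 6 vehicle arrays. Replicate 1 of each group was on slide 1 with its own scan and replicates 2 and 3 were on slide 2, and both slides hold both genotypes.

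The 6 vehicle arrays did not order themselves by genotype. On the first principal component, which held 62.0% of their variance, wild-type replicate 1 and knockout replicate 2 scored -102.7 and -71.2, whereas wild-type replicates 2 and 3 and knockout replicates 1 and 3 scored between 35.0 and 52.6. Those last 4 also lay apart in the whole series, scoring 74.1 to 88.1 on the first component of all 12 arrays, where the other 8 scored from -57.3 to -11.3. Hepatocyte markers were bright on every array, with a summed signal (in multiples of the 75th percentile) of 3308 to 6292 in wild-type and 3207 to 4485 in knockout vehicle livers. Results that rest on single arrays are therefore given with and without them below. In such bulk RNA a lower number of cells of a type cannot be told apart from less RNA per cell.

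The genotype label could not be checked on Akp3 itself. Both Akp3 probes were below background on all 12 arrays: the first read -7.16, -7.86 and -7.44 in wild-type and -7.99, -6.93 and -7.76 in knockout vehicle livers, and the second read between -7.90 and -7.01 in wild-type and between -7.87 and -7.73 in knockout livers. The groups overlapped on both probes and no fold can be given. Alppl2, which encodes another alkaline phosphatase, was not above background on any of the 12 arrays, and Alpi, the second intestinal enzyme, was above it on 1, wild-type vehicle replicate 2. Alpl was measured on all 12. Its signal was 0.45, 1.22 and 1.57 in wild-type livers and 1.77, 1.30 and 1.85 in knockout livers, so knockout replicate 2 lay between wild-type replicates 2 and 3. The difference was 0.56 (SE 0.28), with an adjusted p of 0.710 in limma, and was 0.25 without wild-type replicate 1.

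Of 26397 genes and named transcripts tested with limma, 1 passed an adjusted p of 0.05, which is 0.00379% of those tested, and it was lower in the knockout. It is a transcript with no gene symbol in the files, named for a genomic interval on chromosome 1 of the mm9 build, chr1:74084292-74138492, with the suffix R; the annotation of that build was not used here, so what lies in the interval is not stated. Its signal was -0.72, -1.05 and -0.85 in wild-type vehicle livers and -3.10, -3.10 and -3.28 in knockout vehicle livers. The groups were separated by over 2 log2 units, and no array of either group came near the other. The transcript fell by 2.29 on the log2 scale (SE 0.18, a 4.88-fold lower signal, adjusted p = 0.00224 in limma). The array holds a second probe for the same interval with the suffix F, which read -2.04, -1.53 and -2.58 in wild-type and -2.97, -2.13 and -1.88 in knockout livers. That probe, looked up after the first was seen, overlapped between the groups and differed by -0.28 (SE 0.33), so the 2 probes of the interval did not behave alike.

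The call on the R transcript was kept in 23 of 27 alternatives, all those that leave out 1 array among them, but not in every one. Its adjusted p was 0.218 when only the 6 vehicle arrays were fitted, 0.185 on slide 2 alone, 0.119 without wild-type replicates 1 and 2, and 0.0607 without the 4 arrays that lay apart. In that order, the difference itself was -2.29, -2.24, -2.31 and -2.39 in these fits. In the IIAEK mice, which share no array with the vehicle mice, it read -1.27, -1.53 and -0.92 in wild-type and -2.88, -3.07 and -2.69 in knockout livers, a fall of 1.64 (SE 0.18, adjusted p = 0.0296 in limma).

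At an unadjusted p under 0.05 the vehicle comparison held 1815 genes (6.88% of those tested), 672 higher in the knockout (2.55%) and 1143 lower (4.33%). That total rested on single arrays: it was 4136 without wild-type replicate 1, 886 without wild-type replicate 2, 3832 without wild-type replicate 3 and 1038 without knockout replicate 3. It was 676 with only the 6 vehicle arrays fitted, 809 without wild-type replicates 1 and 2, and 3578 on slide 2 alone. The direction of this split depended on the scaling. The median difference over all tested genes was -0.07 in the scaling used here and 0.05 when arrays were set to a common median, and the same count then came to 1292 higher and 390 lower; quantile normalization gave 937 and 784. Differences below are to be read against a shift of that size. Among the 15321 tested genes with a symbol, 562 were higher and 314 lower, so the excess on the lower side lay in transcripts without one. Members of the lists below all have a symbol, so these counts stand closer to them than the shares over all tested genes. The 2 genotypes did not overlap in 2282 genes (8.64%).

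**Figure D1:**
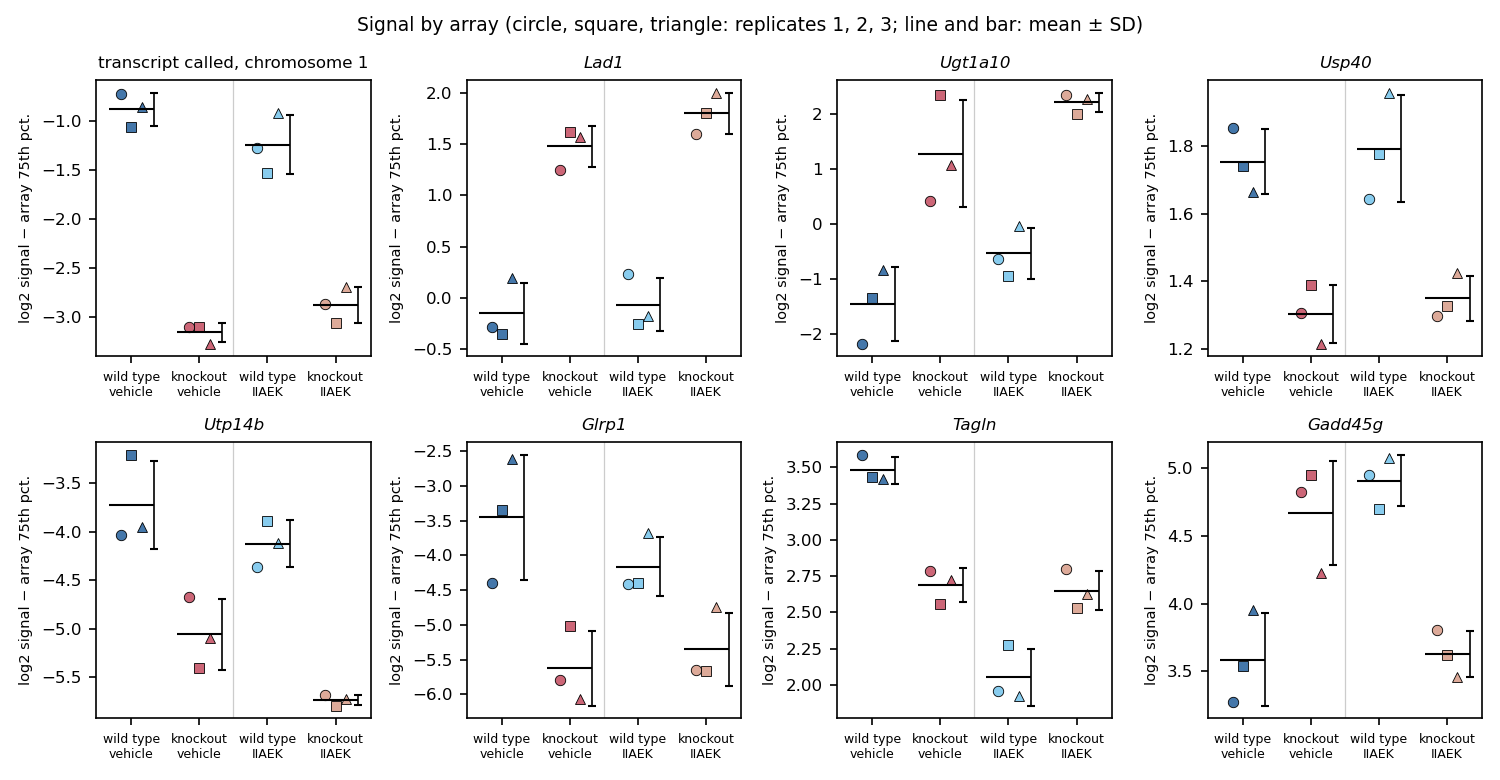
Signal of the called chromosome 1 transcript and of 7 named genes on each of the 12 arrays (log2 minus the array's 75th percentile; 4 groups on the x axis; lines and bars are group mean and SD, n = 3). For the called transcript, Lad1, Ugt1a10, Usp40, Utp14b and Glrp1 the genotypes separate in the same direction under both treatments, whereas Tagln and Gadd45g separate in opposite directions.

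Several named genes that separated clearly were on chromosome 1, the chromosome of Akp3. Genes near Akp3 and others on this chromosome were named by rule, so the choice of names favoured it. Lad1 encodes ladinin, a protein of epithelial basement membranes, and lies 192 tested genes from Akp3 in the RefSeq order. Lad1 read -0.28, -0.35 and 0.19 in wild-type vehicle livers and 1.24, 1.61 and 1.57 in knockout vehicle livers. Every knockout array was brighter than every wild-type array by more than 1 log2 unit. The difference was 1.62 (SE 0.20, 3.08-fold, adjusted p = 0.101 in limma), which did not pass the threshold here; it passed with normexp background correction (adjusted p = 0.0223), the alternative adjusted p-values reaching 0.987. A second Lad1 probe gave 1.60 against 1.62. Under IIAEK the difference was 1.86 (SE 0.20, adjusted p = 0.0296 in limma), which was called.

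Ugt1a10 belongs to the Ugt1a cluster, whose enzymes attach glucuronic acid to bilirubin, steroids and drugs, and it is the 13th tested gene past Akp3. Ugt1a10 read -2.18, -1.35 and -0.84 in wild-type and 0.42, 2.34 and 1.07 in knockout vehicle livers. The groups did not overlap, and knockout replicate 2 was the brightest array. The difference of 2.73 (SE 0.47, 6.65-fold) had an adjusted p of 0.540 in limma. The 2 other members of the cluster that were tested, Ugt1a6a and Ugt1a6b, differed by 0.13 and 0.29 and overlapped between genotypes. Ugt1a transcripts share exons, so a probe can read more than 1 of them, and the assignment to Ugt1a10 is uncertain.

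Of the 25 tested genes on each side of Akp3, 5 of 50 (10%) had an unadjusted p under 0.05. The share was 6.88% of all tested genes and 5.72% of those with a symbol. All 5 lay on the same side. They were Kcnj13, an inward-rectifier potassium channel (-0.54), Dgkd, a diacylglycerol kinase (0.41), Usp40, a deubiquitinating enzyme (-0.45), Ugt1a10, and Glrp1 (-2.17), in that order from Akp3. Usp40 showed how tight a small difference could be: it read 1.86, 1.74 and 1.66 in wild-type and 1.31, 1.39 and 1.22 in knockout livers, with a second probe at -0.37. Glrp1 read -4.39, -3.35 and -2.61 against -5.79, -5.02 and -6.06, near background in the knockout, where 2 of 3 arrays were above it. None of the 5 passed the adjusted threshold. Of the same 5, 4 also had an unadjusted p under 0.05 in the same direction in the IIAEK mice. That is 8.00% of the 50 genes, beside 1.77% of all tested genes and 1.48% of those with a symbol.

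Other genes near Akp3 that earlier results had named had an unadjusted p above 0.05. Ecel1, Eif4e2 and Gigyf2, the first 3 tested genes past Akp3, differed by -0.34, -0.22 and -0.01, and Ngef, Neu2, Inpp5d, Atg16l1, Sag and Trpm8 by between -0.27 and 0.24. Prss56, Chrnd, Chrng, Efhd1 and Hjurp, and the Ugt1a members Ugt1a1, Ugt1a2, Ugt1a5, Ugt1a7c and Ugt1a9, had no probe that passed the filter on dim probes or no probe under that name. On the other side, Utp14b, which encodes a protein of the small ribosomal subunit processome and lies 35 tested genes away, read -4.03, -3.21 and -3.95 in wild-type and -4.67, -5.41 and -5.09 in knockout livers. The groups did not overlap, and the difference was -1.33 (SE 0.25, adjusted p = 0.673 in limma). Kansl1l, 99 tested genes away, differed by -0.94, and Tns1, 80 away, by 0.00.

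Chromosome 1 as a whole held no excess. Of its 867 tested genes, 4.84% had an unadjusted p under 0.05, and the other autosomes and X held between 3.78% and 7.49%. Genes with such a p in the same direction under both treatments made up 1.96% of chromosome 1 and 0.633% to 2.54% of the others.

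**Figure D2:**
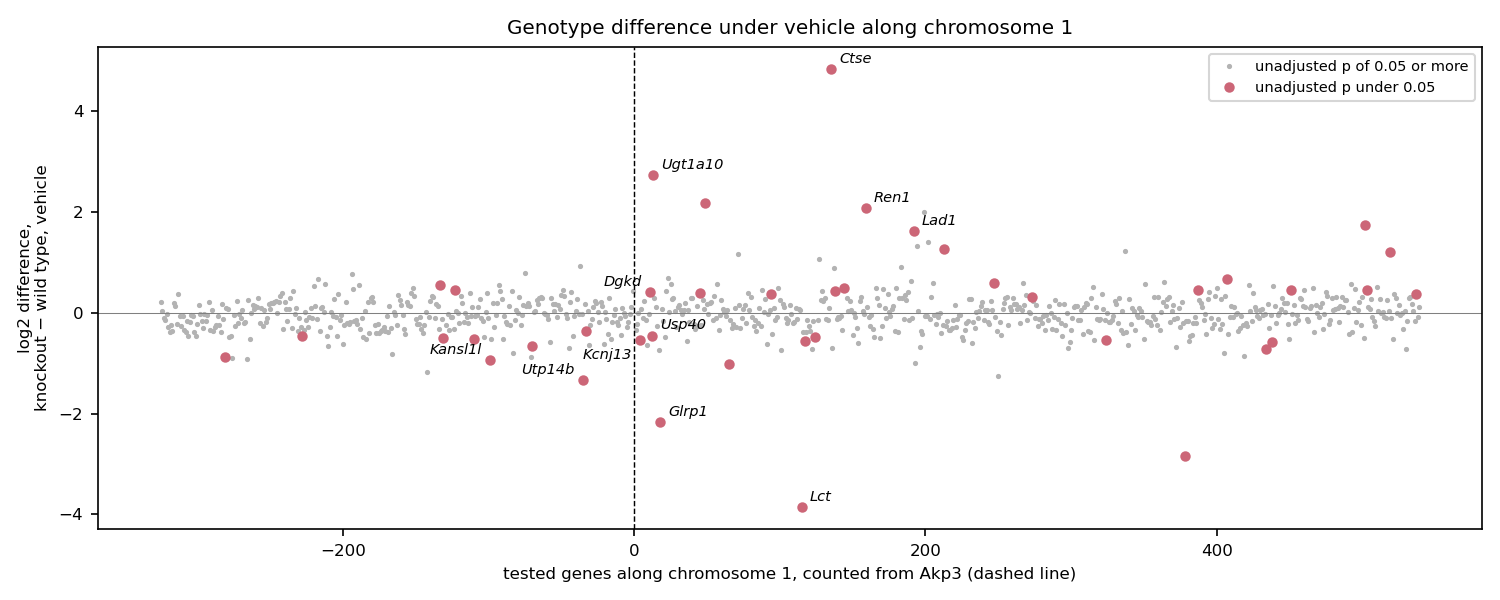
Genotype difference under vehicle (log2, knockout minus wild type) of the 864 tested genes placed in order on chromosome 1, counted from Akp3 at the dashed line; red points have an unadjusted p under 0.05. Ugt1a10 and Glrp1 stand at 2.73 and -2.17 within 18 tested genes of Akp3. Ctse (4.84) and Lct (-3.86) were labelled after their values were seen. Ctse ranged from -7.37 to -0.06 on the wild-type vehicle arrays. Lct did not overlap between genotypes, but only 1 of 3 knockout vehicle arrays was above background. Lct passed the filter on dim probes only through the wild-type vehicle arrays.

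The renin genes of chromosome 1 varied widely within the wild-type group. Renin cleaves angiotensinogen, and Ren1 and Ren2 are near-identical copies, so the probes may read both. Ren2 read -3.69, -3.65 and 3.24 in wild-type vehicle livers and 4.73, 1.44 and 2.54 in knockout vehicle livers. Wild-type replicate 3 was as bright as the knockouts while the other 2 wild-type arrays were dim. The difference of 4.27 carried an SE of 1.72 and turned to -0.34 without wild-type replicates 1 and 2. Ren1 was also brightest on replicate 3 among the wild-type arrays (-5.07, -5.50 and -2.29, against -0.42, -3.40 and -2.82), with a difference of 2.08 (SE 0.87).

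A set of mitosis genes was brighter in the knockout vehicle livers as a group, although no member passed the adjusted threshold. The set holds cyclins, the kinases that drive entry into mitosis, spindle motors and the ligase parts that end it. Many such genes carry, just before their start, a cell-cycle homology region (TTTGAA, or TTCAAA on the other strand), through which the DREAM and MuvB complexes act, and CCAAT boxes (ATTGG on the other strand), bound by NF-Y. The 4 promoters shown are those of the mitosis members with the smallest p that hold the first motif in the 150 bases before the RefSeq start, and capitals mark both motifs.
Cdc20: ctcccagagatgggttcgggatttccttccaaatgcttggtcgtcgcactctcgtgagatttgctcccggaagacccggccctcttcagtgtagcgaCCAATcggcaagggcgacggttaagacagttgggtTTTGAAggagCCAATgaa
Ube2c: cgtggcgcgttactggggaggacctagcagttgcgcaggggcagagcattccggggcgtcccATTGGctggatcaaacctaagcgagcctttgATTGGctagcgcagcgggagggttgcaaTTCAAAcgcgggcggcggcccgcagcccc
Kif11: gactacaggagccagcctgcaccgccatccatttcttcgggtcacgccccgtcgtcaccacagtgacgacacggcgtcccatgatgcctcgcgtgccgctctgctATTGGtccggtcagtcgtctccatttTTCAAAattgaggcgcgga
Cdk1: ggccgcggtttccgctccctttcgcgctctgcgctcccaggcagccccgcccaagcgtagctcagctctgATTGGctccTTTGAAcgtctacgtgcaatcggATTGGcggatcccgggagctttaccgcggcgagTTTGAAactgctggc

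These windows are from the RefSeq table on GRCm38.p6, at chr4:118437344-118437493, minus strand for Cdc20, chr2:164769779-164769928, plus strand for Ube2c, chr19:37376232-37376381, plus strand for Kif11 and chr10:69352913-69353062, minus strand for Cdk1. Counted from the start at +1, the first motif begins at base -18 in Cdc20, -29 in Ube2c, -19 in Kif11, and -71 and -15 in Cdk1. In the same window, 7 of the 17 mitosis members in the table (41.2%) held the cell-cycle homology letters and 15 (88.2%) held CCAAT letters. Of 32851 mouse promoters, from 27025 genes, 9.07% and 24.5% did. These shares count promoters while those of the gene sets count genes, so they are not on the same basis. Of 17 DNA replication genes, 1 (5.88%) held the first motif and 8 (47.1%) the second. A match of letters is a description of the window and was not tested against the array values.

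All 22 mitosis genes were tested and all 22 had a higher mean in the knockout, with differences from 0.77 to 2.56. Their median was 1.58, against -0.07 over all tested genes and 0.01 over those with a symbol. With normexp background correction the set's median was 1.004 and all 22 were higher. An unadjusted p under 0.05 was reached by 16 of the 22, all on the higher side. On that side stood 2.55% of all tested genes and 562 of the 15321 with a symbol. Genes of this set move together, so they are not separate observations. Plk1, the kinase that starts spindle assembly, read -3.30, -1.75 and -0.42 in wild-type and -0.35, 0.79 and 0.74 in knockout livers. Knockout replicate 1 cleared wild-type replicate 3 by under 0.1, and wild-type replicate 1 lay far below every other array. The difference was 2.21 (SE 0.64, adjusted p = 0.710 in limma).

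Cdc20, an activator of the anaphase-promoting complex, differed by 2.56 (SE 0.75): wild-type livers read -2.84, -0.91 and 0.51 and knockout livers 0.37, 2.15 and 1.93, so that wild-type replicate 3 passed knockout replicate 1. Ube2c, the ubiquitin-conjugating enzyme of that complex, read -3.56, -1.22 and -0.83 against -0.50, 0.41 and 0.32. Kif20a, a kinesin needed for cell division, read -3.27, -1.28 and -0.24 against -0.42, 0.79 and 0.71. In all 4 genes wild-type replicate 1 was the dimmest array and knockout replicates 2 and 3 the brightest, while wild-type replicate 3 lay above knockout replicate 1 in Cdc20 and Kif20a and below it in Plk1 and Ube2c. Kif11, a spindle kinesin, and Cdk1, the mitotic kinase, whose promoters are shown with those of Cdc20 and Ube2c, differed by 0.77 (SE 0.33) and 1.24 (SE 0.60).

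How much brighter the set was depended on which wild-type array was counted. Relative to each gene's mean over 12 arrays, the set's median was -2.50, -0.34 and 0.35 on the wild-type vehicle arrays and -0.09, 1.14 and 1.20 on the knockout vehicle arrays, so wild-type replicate 3 lay above knockout replicate 1. The set's median difference was 2.51 between the 2 vehicle arrays of slide 1 and 1.18 on slide 2. Without wild-type replicate 1 it was 0.78 with 7 of 22 members under an unadjusted p of 0.05, and without wild-type replicates 1 and 2 it was 0.54, with 21 of 22 members higher and 0 under that p. Leaving out knockout replicate 2 or 3 brought the number of members to 7 or 8. Of the 26397 tested genes, 1960 had such a p on the higher side without wild-type replicate 1. That count was 611 without knockout replicate 2 and 348 without knockout replicate 3.

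The opposite choice enlarged it. Without the 4 arrays that lay apart, 1 vehicle array of each genotype remained, assumed to vary like the other groups. That fit called 60 genes (0.227%), 52 higher and 8 lower, and 10 of the 22 mitosis genes were among them, with a median of 3.61. In the IIAEK mice, a separate set of arrays, all 22 members were again higher in the knockout, with a median of 1.24 and 6 members under an unadjusted p of 0.05, where 7.88% of all tested genes were in either direction.

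Of 21 DNA replication genes tested, 8 were higher and 13 lower under vehicle, with a median of -0.06. Under IIAEK 18 of the 21 were higher, with a median of 0.15. Cdc6, which loads the replicative helicase, read -2.44, -2.56 and -2.61 in wild-type and -3.46, -2.86 and -2.95 in knockout livers, a difference of -0.56 (SE 0.17); a second, dim Cdc6 probe gave 0.00. Gins1, a part of that helicase, differed by -0.51 (SE 0.23). Both had an adjusted p of 0.710 in limma.

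**Figure D3:**
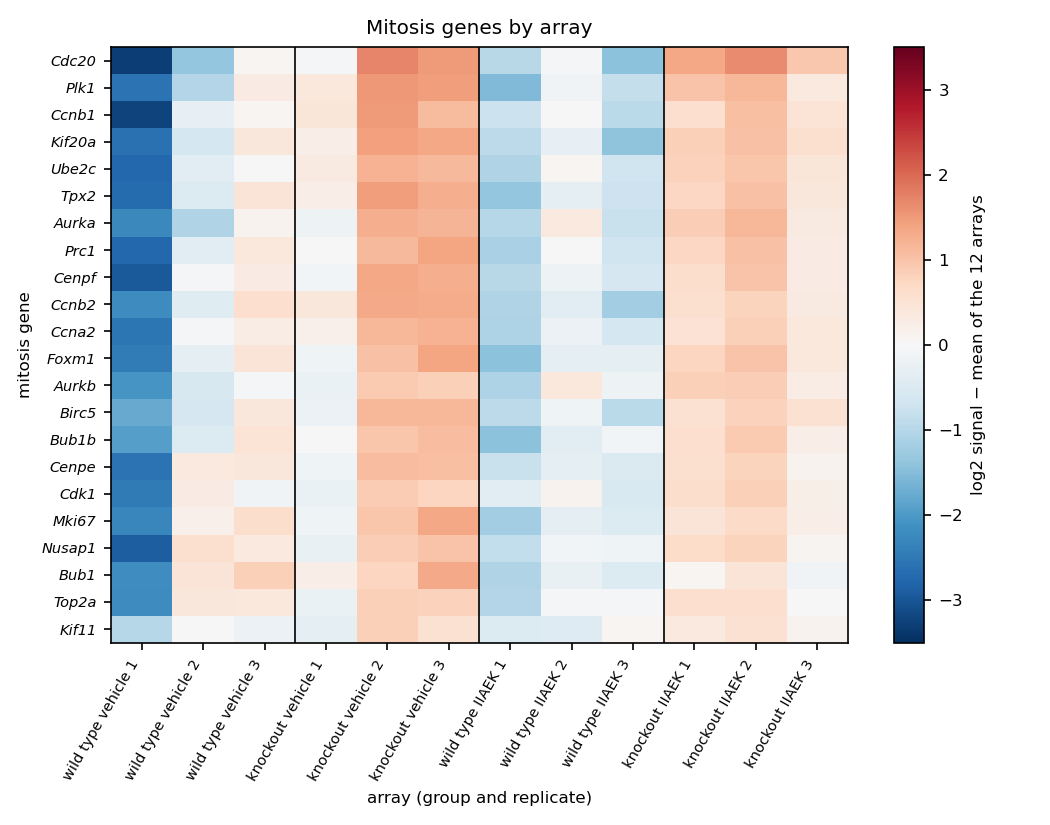
The 22 mitosis genes (rows, ordered by the vehicle difference) on the 12 arrays (columns, by group and replicate); colour is log2 signal minus the gene's mean over the 12 arrays. Wild-type vehicle replicate 1 is the darkest blue column, with a set median of -2.50, and wild-type vehicle replicate 3 (0.35) is above knockout vehicle replicate 1 (-0.09).

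Other genes were named by a small p on the higher side or by separating alike under both treatments, and none passed the adjusted threshold. Dlgap5, a spindle protein, was below background on all 3 wild-type arrays and above it on all 3 knockout arrays, at least 1.61-fold higher. Mxd3, a MAX-binding repressor linked to proliferation, was likewise below background in all 3 wild-type livers on its brightest probe. That probe was above background in 2 of 3 knockout livers, so its difference of 1.93 rests in part on background readings. A second Mxd3 probe, above background on 1 wild-type array, gave 1.07. Ect2, which positions the cleavage furrow, differed by 1.66 (SE 0.57). Aqp3, a channel for water and glycerol, was at least 1.66-fold higher, again with wild-type arrays below background, and its difference of 1.33 became -0.02 with normexp background correction. Cox6b2, a subunit of cytochrome c oxidase, read -2.45, -2.34 and -1.97 against -1.10, -0.33 and -1.18, a difference of 1.38 (SE 0.29). Fbxo10, an F-box protein, and Kifc3, a kinesin, differed by 0.78 and 0.91, and the linker histone H1f10 was above background on 1 wild-type and 3 knockout arrays. Dlgap5, Aqp3 and H1f10 passed the filter on dim probes only through the knockout vehicle arrays, so the filter favoured that direction.

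On the lower side, several differences were under 1 log2 unit with little spread within groups. Hoxa5, a homeobox factor, read -3.68, -3.63 and -3.75 in wild-type and -4.32, -4.51 and -4.26 in knockout livers, a difference of -0.67 (SE 0.15). Pcf11, a factor of transcript 3' end formation, differed by -0.78 with other probes at -0.33 and -0.37, and Rbm12b2, an RNA-binding protein, by -0.57 with a second probe at -0.40. Hmgb1, a chromatin protein that also acts as an alarm signal outside cells, read 4.74, 4.73 and 4.19 against 3.79, 3.91 and 3.76, and its 3 probes gave -0.73, -0.58 and -0.57. The probes of these genes agree in sign. Hsf5 differed by -0.75 on its brightest probe and 0.39 on another, so the 2 disagree. Glod5 was larger and less even (-4.10, -1.55 and -4.93 against -5.59, -6.40 and -5.28, a difference of -2.23 with an SE of 0.73, above background on 2 of 3 knockout arrays). 4930518P08Rik and the small nucleolar RNA Snora34 differed by -0.96 and -0.80. Glod5 and 4930518P08Rik passed the filter on dim probes only through the wild-type vehicle arrays, so the filter favoured that direction.

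Tagln and Gadd45g separated the genotypes in opposite directions under the 2 treatments, and are among 28 of the 26397 tested genes that did so. Tagln encodes transgelin, an actin-binding protein of smooth muscle. It read 3.59, 3.43 and 3.42 in wild-type and 2.79, 2.56 and 2.72 in knockout vehicle livers, a difference of -0.79 (SE 0.15, adjusted p = 0.673 in limma), and the difference under IIAEK was 0.60 (SE 0.15). Gadd45g, which is induced by stress and slows growth, read 3.27, 3.54 and 3.95 against 4.83, 4.95 and 4.23, a difference of 1.08 (SE 0.23, adjusted p = 0.710 in limma), and -1.28 (SE 0.23) under IIAEK. For Gadd45g the change in the genotype difference was -2.36 (SE 0.32), with an adjusted p of 0.489 in limma.

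Transcripts of the intestine and pancreas were brighter in the wild-type vehicle livers. Of 25 small-intestine markers, 16 passed the filter on dim probes, and 14 of these were lower in the knockout. An unadjusted p under 0.05 was reached by 9, all on the lower side. On that side stood 4.33% of all tested genes and 314 of the 15321 with a symbol. The median difference of the 16 was -1.89. That median was -0.87 with normexp background correction and -1.05 without wild-type replicate 2, with 9 and 8 members under that p. In these fits 1747 and 565 of the 26397 tested genes had such a p on the lower side. Guca2b, the gut hormone uroguanylin, read -0.76, 0.36 and -2.21 in wild-type and -3.37, -4.38 and -3.07 in knockout livers, a difference of -2.73 (SE 0.66). Muc2, the main mucin of intestinal goblet cells, was above background on all 3 wild-type arrays and no knockout array, at least 7.46-fold lower, though its second probe was below background on all 12 arrays. Lypd8 and Reg3b, which keep bacteria off the gut wall, differed by -3.32 (SE 0.85) and -3.63 (SE 0.99), but only 1 of 3 knockout arrays was above background for each, so these sizes rest in part on background readings. All 3 wild-type arrays were above all 3 knockout arrays in these 4 genes, and wild-type replicate 2 was the brightest of them. Muc2, Lypd8 and Reg3b passed the filter on dim probes only through the wild-type vehicle arrays, so the filter favoured that direction.

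Fcgbp, another goblet-cell gene, followed the same order (-3.08, -0.96 and -3.43 against -5.31, -5.16 and -4.82; difference -2.60, SE 0.57). The small-intestine list's median was 1.26, 3.06 and 0.70 on the wild-type vehicle arrays relative to each gene's mean over 12 arrays, and between -0.57 and 0.23 on the knockout vehicle arrays. Under IIAEK the list's median difference was -0.01. Of 17 exocrine pancreas markers that passed the filter on dim probes, 17 were lower in the knockout, with a median of -1.03, but the median was 2.90 on wild-type replicate 1 and between -0.46 and -0.12 on the other 5 vehicle arrays, and without that array the list's median difference was 0.07. Zg16 (-3.24), Reg1 (-3.11) and Ctrl (-0.55) were the members with an unadjusted p under 0.05. Zg16 and Reg1 are also made in the intestine. Reg1 passed the filter on dim probes only through the wild-type vehicle arrays. Of 6 mesothelium markers, 5 were lower (median -0.79, and -0.39 with normexp background correction), with Msln at -1.20. Upk3b was above background on 1 wild-type and 0 knockout vehicle arrays, so no fold is given. Where these organ markers move with a gene group below, their part in that group was not tested.

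**Figure D4:**
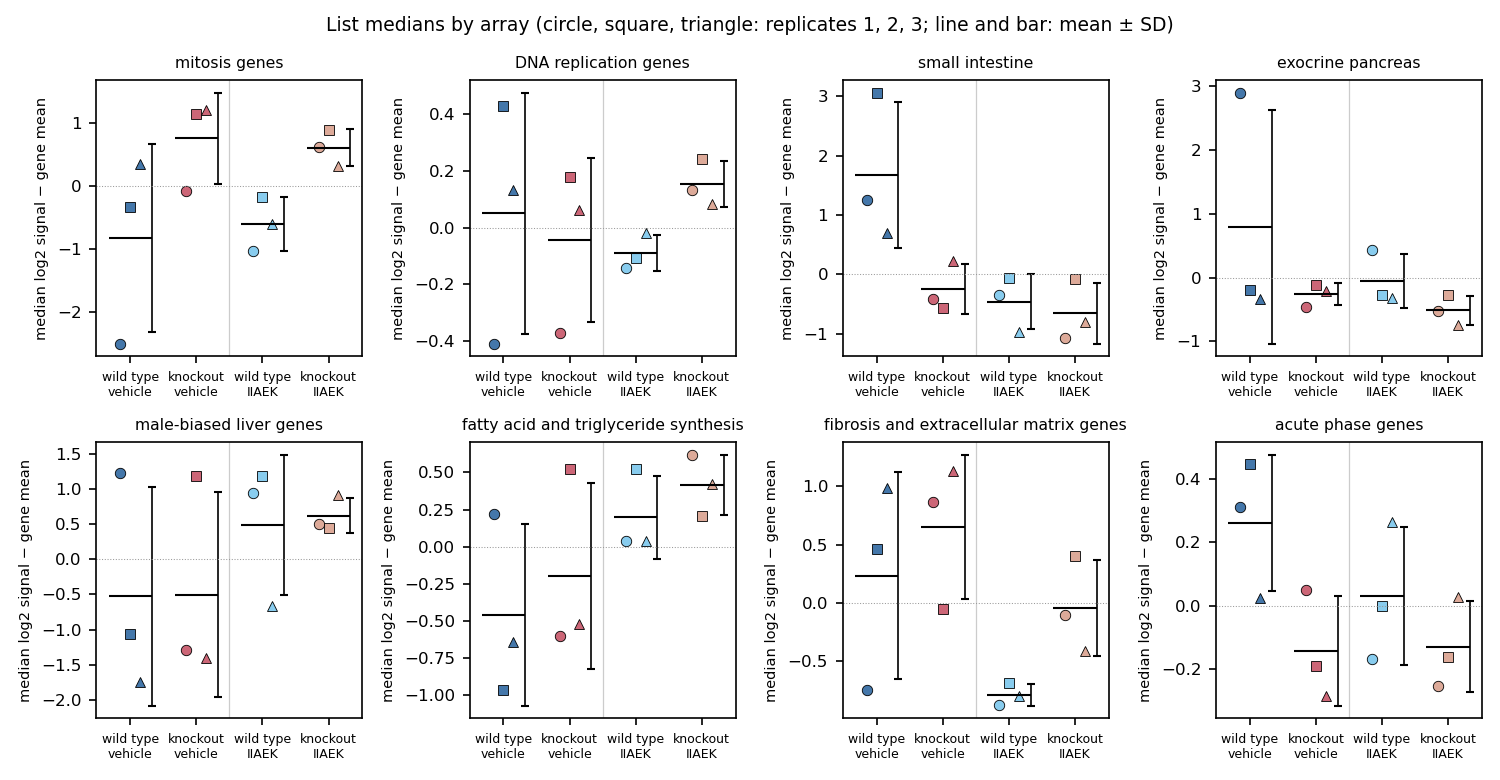
Median log2 signal of 8 gene lists on each of the 12 arrays, relative to each gene's mean over the arrays (4 groups on the x axis; lines and bars are group mean and SD, n = 3). Small-intestine markers are highest on wild-type vehicle replicate 2 (3.06) and pancreas markers on wild-type vehicle replicate 1 (2.90), and male-biased genes range from -1.74 to 1.23 within the wild-type vehicle group.

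Genes of the acute phase, the set of plasma proteins that the liver makes in inflammation, were mostly lower in the knockout vehicle livers. Of 25 tested, 19 were lower and 6 higher, with a median of -0.39. An unadjusted p under 0.05 was reached by 3, all lower. On that side stood 4.33% of all tested genes and 314 of the 15321 with a symbol. Over all tested genes 10801 were higher and 15596 lower, but over the 15321 with a symbol 7909 were higher and 7412 lower. Saa2 and Saa1, the serum amyloid A proteins, read 7.01, 6.75 and 6.21, and 6.70, 6.84 and 6.32, in wild-type livers, and 5.93, 5.08 and 5.66, and 6.07, 4.91 and 5.74, in knockout livers. Neither overlapped between genotypes, with differences of -1.10 (SE 0.49) and -1.05 (SE 0.48) and an adjusted p of 0.710 in limma, and the 2 genes are similar enough for their probes to read both. Orm1 and Orm2, the orosomucoids, differed by -0.48 and -0.53 with overlap. The list's median was -0.23 on slide 1 and -0.35 on slide 2, and between -0.37 and -0.27 in the other scalings. Under IIAEK Saa1 and Saa2 differed by 0.12 and 0.35, and Orm1 and Orm2 by -0.61 and -0.62.

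Lipid synthesis genes were slightly higher, with the slides disagreeing. In the list for making fatty acids and triglycerides 18 of 22 genes had a higher mean (median 0.21). Fasn, Acaca and Acly, which turn citrate into fatty acids, had an unadjusted p under 0.05 with differences of 0.89, 0.66 and 0.36. Such a p on the higher side was held by 2.55% of all tested genes and 562 of the 15321 with a symbol. Acly did not overlap between genotypes (3.82, 3.51 and 3.94 against 4.15, 4.09 and 4.11). The median of this list was -0.76 on slide 1 and 0.87 on slide 2. Of 24 cholesterol synthesis genes and SREBP2 targets, 18 were higher (median 0.23; -0.63 on slide 1 and 0.55 on slide 2). Lss and Dhcr7, enzymes of the late steps of that pathway, differed by 0.54 and 0.62 without overlap. Lss and Dhcr7 were higher on both slides, by 0.39 and 0.61, and by 0.70 and 0.57.

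Of 30 PPARalpha targets and genes of fatty acid oxidation, 24 were higher (median 0.31; -0.55 on slide 1 and 0.57 on slide 2), with Cidec, a lipid droplet protein, at 1.69 (SE 0.71) and Acot2, a thioesterase, at 0.90 (SE 0.38). Under IIAEK 8 of the 30 were higher (median -0.19), and 6 had an unadjusted p under 0.05, all lower. On that side 1196 of the 26397 tested genes had such a p under IIAEK. Of 25 drug-metabolism genes regulated by CAR and PXR, 16 were higher under vehicle, with a median of 0.16, and 0 were higher under IIAEK, with a median of -0.66. Cyp3a11, the main hepatic Cyp3a enzyme, read 6.63, 7.31 and 6.63 in wild-type and 7.44, 7.71 and 7.35 in knockout vehicle livers, a difference of 0.65 (SE 0.25), and -0.89 (SE 0.25) under IIAEK. Cyp3a16 and Por, the reductase that serves these enzymes, differed by 0.53 and 0.51. Cyp3a genes are close copies, so their probes may read more than 1 of them.

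Liver endothelial markers were higher in 13 of 15 genes (median 0.26; -0.05 on slide 1 and 0.51 on slide 2), and the median was 0.13 without wild-type replicate 2 and 0.11 without the 4 arrays that lay apart. Of the 15, 4 did not overlap between genotypes, all higher, Vwf, Flt4 and Gpr182 among them. In either direction 8.64% of all tested genes and 7.27% of those with a symbol did not overlap. Vwf, Flt4 and Gpr182 differed by 0.67 (SE 0.20), 0.53 (SE 0.19) and 0.33 (SE 0.13). Vwf read 0.13, -0.57 and -0.36 against 0.54, 0.44 and 0.24. The iron-handling genes Smad6, an inhibitor of BMP signalling, and Slc11a2, an iron importer, were each 0.61 higher without overlap, the latter on its brightest probe while others gave from -0.17 to 0.32. Hspb1, a small heat shock protein, was 0.85 higher (3.49, 3.05 and 3.74 against 4.31, 4.76 and 3.75), and Arntl, a core clock factor, 1.07 higher with overlap. Apob, the protein of very-low-density lipoprotein, was 0.44 lower on the log2 scale (7.02, 6.71 and 6.49 against 6.09, 6.47 and 6.35), with a second probe at -0.18.

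Several lists that inflammation or hormones move had medians near 0 that hid opposite slides. Endotoxin-sensing genes and NF-kappaB targets had a median of -0.07, from 1.13 on slide 1 to -0.49 on slide 2. Immediate early genes gave -0.0047, from 1.11 to -0.66; macrophage and Kupffer cell markers gave -0.15, from 1.22 to -0.65; neutrophil markers gave -0.29, from 1.93 to -1.18. Male-biased liver genes gave -0.02, from -2.43 to 1.28. No member of the macrophage and male-biased lists had an unadjusted p under 0.05. Matrix genes were higher in 26 of 29 (median 0.48), but the median was -0.05 without wild-type replicate 1. The one member with an unadjusted p under 0.05 was Tagln, on the lower side. Under IIAEK 27 of the 29 matrix genes were higher, with a median of 0.75. There 8 had an unadjusted p under 0.05, all higher, where 7.88% of all tested genes were in either direction. Slide 1 held wild-type replicate 1 and knockout replicate 1, which had scores of opposite sign on the first principal component, so slide and array cannot be told apart there.

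**Figure D5:**
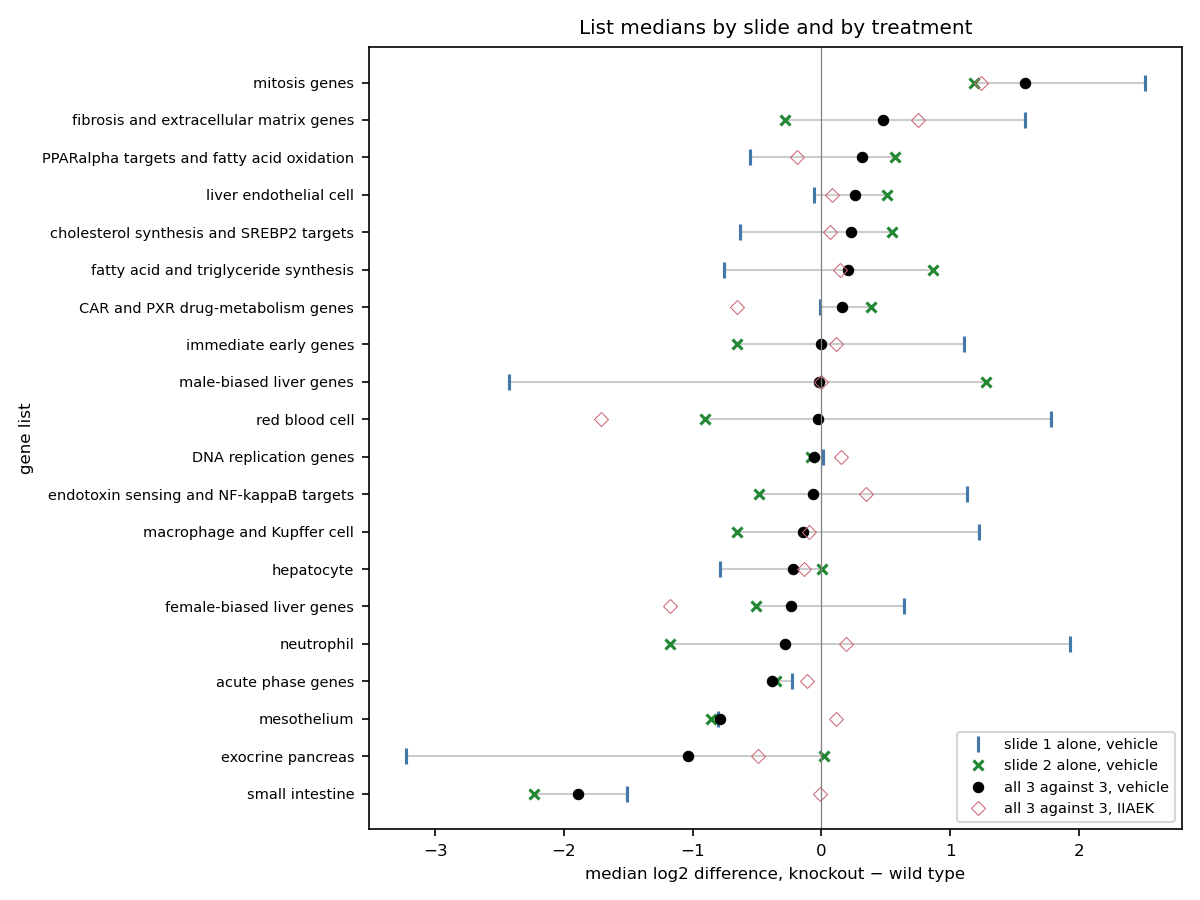
Median log2 difference (knockout minus wild type, x axis) of 20 gene lists under vehicle with all 3 arrays against 3, on slide 1 alone (1 against 1) and on slide 2 alone (2 against 2), and under IIAEK. The mitosis list is at 1.58, with slides at 2.51 and 1.18, and the small-intestine list at -1.89, while male-biased genes run from -2.43 to 1.28.

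The genotype comparison in the IIAEK mice used 6 other arrays, and served to read the same genes again. It called 2 genes (0.00758%), Lad1 higher and the chromosome 1 transcript lower, and held 2080 at an unadjusted p under 0.05 (7.88%); its genotypes did not overlap in 7338 genes (27.8%). Of the 1815 genes with such a p under vehicle, 467 had one under IIAEK in the same direction and 8 in the opposite direction. Those 467 are 25.7% of the vehicle genes and 22.5% of the IIAEK genes. Without overlap and with such a p in the same direction under both treatments there were 315 genes, 109 higher and 206 lower. Ugt1a10, Plk1, Mxd3, Ect2, Dlgap5, Lad1, H1f10 and Cox6b2 had the largest differences on the higher side. Mxd3, Dlgap5 and H1f10 were each above background on only 5 of the 12 arrays. Their separation therefore rests in part on background readings. Mxd3 passed the filter on dim probes through an IIAEK group only. No gene's genotype difference differed between vehicle and IIAEK at an adjusted p of 0.05 in limma (0 genes, 0.0%), while 426 did at an unadjusted p under 0.05 (1.61%).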

How the data were processed

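Mouse liver RNA was measured on 12 Agilent arrays of 1 colour. Spot intensity was extracted with Feature Extraction 10.7.3.1 and deposited as background-corrected processed signal, per the file headers, which name mm9. The deposited series table holds log2 values: set against the scanner values it is each probe minus its median over the arrays, with column medians from -0.15 to 0.17, and served as an alternative.

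Here log2 processed signal minus each array's 75th percentile over non-control spots was used, with spots of a probe averaged and a gene read by its brightest probe. A gene was tested when its probe exceeded background on every array of some group (26397 genes and transcripts), with limma 3.58.1 in R 4.3.3: 1 mean per group over all 12 arrays, moderated test, Benjamini-Hochberg adjustment, threshold 0.05. The number of arrays limits the precision. The fit was tested on simulated data. A probe below background throughout 1 group and above it on every array of the other gives a bound ("at least"), set at the lowest signal well above background. Of 56588 probes, 32978 had a symbol in the RefSeq table. No printed sequence is from chromosome 18. Replicate numbers did not pair the arrays. Alternatives changed the background correction, scaling, filter, probe choice, slide, arrays left out and fit.

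Members and gene lists were chosen with earlier results of these data known. Named genes were those called, up to 8 a direction by p otherwise; the alkaline phosphatases; genes near Akp3; up to 4 members a list by p; and up to 8 a direction that separated alike under both treatments.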

Additional observations from a re-analysis of the deposited data

Results flagged for a closer look

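In 4 named genes every knockout array lay on one side of the wild-type arrays under vehicle and on the other side under IIAEK. Of the 26397 tested genes 28 did so, while 826 separated in the same direction under both treatments. The change in the genotype difference from vehicle to IIAEK was -2.36 for Gadd45g (SE 0.32), 1.39 for Tagln (SE 0.21), -1.54 for Cyp3a11 (SE 0.35) and -0.54 for Gpr182 (SE 0.19). None passed an adjusted p of 0.05 in limma over all tested genes: the values were 0.489, 0.514, 1 and 1. Gadd45g and Tagln are also named by their small p under vehicle, so their choice favoured a large difference there.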

How the results depend on the processing

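Under vehicle 1 gene was called. The count was 2 with normexp background correction and with no filter on dim probes, 0 with only the 6 vehicle arrays and without wild-type replicates 1 and 2, and 60 without the 4 arrays that lay apart, none of them the transcript called otherwise; slide 2 alone called 1, also another. Leaving out 1 array gave 1 to 2. Under IIAEK, where 2 were called, the count was 0 with median scaling, no filter, averaged probes, a slide block, slide 2 alone and the replicate block, 59 with array weights, 10 without the 4 arrays, 6 without wild-type vehicle replicates 1 and 2, and 0 to 4 with 1 array left out. Of the differences between treatments 0 were called, 1 without the 4 arrays, and 0 to 1 with 1 array left out. The deviations of same-numbered wild-type and knockout vehicle arrays from their group means correlated at -0.46, -0.55 and 0.65. The replicate block therefore rests on a shared number alone. It called 1 gene under vehicle. Of the mitosis genes, 16 had an unadjusted p under 0.05, and 4 with array weights and 9 with only the vehicle arrays. Over all tested genes these counts were 1815, 1213 and 676.

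Of the named genes, 13 changed sign under some alternative, most from a difference near 0; the cause was not tested. With normexp, Aqp3 came to -0.024 and Gigyf2 to 0.025. Median scaling gave 0.019 for Neu2, 0.10 for Sag and 0.12 for Gigyf2, quantile normalization 0.081 for Sag, and the deposited series values gave 0.011 for Gigyf2. On slide 2 alone Trpm8 was 0.18, Inpp5d -0.48, Neu2 0.22, Sag 0.13, Gigyf2 0.21 and the F probe of the chromosome 1 interval 0.045. Array weights gave 0.10 for Trpm8 and Neu2, 0.044 for Sag and 0.032 for Gigyf2. Without wild-type replicates 1 and 2, Ren2 was -0.34, Ecel1 0.12, Trpm8 0.11, Inpp5d -0.55, Sag 0.17, Gigyf2 0.049 and the F probe 0.25. Without the 4 arrays Tns1 was -0.55 and Arntl -0.17. With 1 array left out, Trpm8 ranged from -0.54 to 0.20, Ugt1a6a from -0.064 to 0.37, Inpp5d from -0.26 to 0.74, Neu2 from -0.34 to 0.18, Ngef from -0.061 to 0.29, Sag from -0.12 to 0.085, Gigyf2 from -0.16 to 0.18, Tns1 from -0.20 to 0.22 and the F probe from -0.55 to 0.040.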
